A study of Mus musculus with 29 samples.

Results

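The first days after ligation of the common bile duct were followed in whole mouse liver by setting the 5 arrays titled 3d BDL against the 5 arrays titled 1d BDL. These 10 arrays are part of 29 in all, and they were taken by their titles, with earlier results of these data known. BDL stands for bile duct ligation, which stops the flow of bile into the gut. All animals were male C57BL/6N mice of 8 to 10 weeks on a standard diet. Every title carries the mark wt, read here as wild type, and the labels name no genetic change. In the BDL groups the extrahepatic duct was tied, and livers were taken at day 1 or day 3. Sham operated mice without ligation gave 3 arrays at day 1 and 2 arrays at day 3, and they served as the measure of the same step in time after surgery. The titles carry different animal numbers, so each array stands for 1 mouse as the labels read. The p-values rest on the spread between mice within groups, pooled over all 29 arrays and moderated across genes. Day 3 is described against day 1, since no liver from before surgery is among the arrays analysed.

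When bile cannot leave, bile acids and bilirubin back up into the hepatocytes, the parenchymal cells that make bile, and into the blood. In the first day cells die in patches and an inflammatory response driven by NF-kB sets in. Over the following days the surviving cells enter the cell cycle, macrophages clear debris, bile ducts begin to multiply and stellate cells, the collagen-producing pericytes of the sinusoids, become active. Sinusoids are the wide capillaries of the liver, lined by a specialised endothelium and patrolled by Kupffer cells, the resident macrophages.

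Expression was read on Affymetrix arrays as log2 values after RMA (robust multi-array average), so a difference of 1 is a doubling. A level can be set against the same gene in another array but not against another gene. Alb, the gene of serum albumin and a marker of hepatocytes, read 14.02 to 14.12 at day 1 and 14.12 to 14.15 at day 3, a difference of 0.05 ± 0.06 (SE, adjusted p = 0.576). Apoa1 and Hnf4a likewise did not pass the test (-0.01 and -0.12). Across genes, the correlation between arrays was 0.955 to 0.985 within day 1, 0.964 to 0.989 within day 3 and 0.936 to 0.976 between the days. Day 1 replicates 2 and 3 stood apart: the SD of their log2 values over the 14699 genes tested was 1.578 and 1.551, against 1.645 to 1.68 in the other 8 ligated arrays. The mean of 71 small nucleolar RNAs was 9.02 and 9.43 in these 2 arrays, 8.01 to 8.48 in the other day 1 arrays and 7.87 to 8.16 at day 3. Sham day 1 replicates 1 and 3 showed the same low spread, and no array of day 3 did. The counts of gene lists are therefore given with and without the 2 low-spread arrays of day 1.

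Between day 1 and day 3, 1769 genes rose and 946 fell at an adjusted p under 0.05 in limma's moderated test, which is 12.0% and 6.44% of the genes tested. Without the 2 low-spread arrays 608 rose and 449 fell, 4.14% and 3.05%. Of the 2715 genes called with all arrays, 955 were also called without the 2, and no called gene changed its sign. Leaving out day 1 replicate 3 alone lowered the count to 1718. When each array was centred on its median instead, 1362 rose and 1628 fell, and with cyclic loess 1642 rose and 1263 fell, so the split between rises and falls over all genes depends on the scaling. In 963 genes (6.55%) every day 3 array lay above every day 1 array, and in 581 genes (3.95%) every one lay below. The counts of gene lists below are to be read against these shares. Over all genes tested the median log2 fold change was 0.01.

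Of the lists described here, that of the lining of the sinusoids had the largest share of members that rose. Of 20 markers of sinusoidal endothelium 18 rose, with a median log2 fold change of 1.04, and the same number rose without the 2 low-spread arrays (median 1.02). In 14 of the 20 the day 3 arrays all lay above those of day 1. In bulk liver, fewer cells of a type and less RNA per cell cannot be told apart. Kdr, the main receptor for VEGF, read 7.32, 6.68, 6.86, 6.83 and 6.52 in day 1 replicates 1 to 5 and 7.93, 7.90, 8.47, 8.56 and 7.90 in day 3 replicates 1 to 5. The groups did not overlap, and the rise was 1.31 ± 0.17 (adjusted p = 1.14e-05). Clec4g, a lectin of these cells, read 8.08, 7.86, 8.17, 7.74 and 7.29 at day 1 and 9.11, 9.02, 10.01, 10.06 and 9.01 at day 3, a rise of 1.61 ± 0.23 (adjusted p = 3.5e-05). For this gene, too, the groups did not overlap, and day 3 replicates 3 and 4 were the highest. Cdh5, the cadherin of endothelial junctions, rose by 1.34, Clec1b, the receptor for podoplanin, by 1.34, and Lyve1, a hyaluronan receptor, by 1.29. The scavenger receptors Stab1 and Stab2 rose by 0.88 and 0.94. The 2 markers that did not pass the test were the Wnt ligands Wnt2 (0.19) and Wnt9b (-0.10), which endothelial cells near the central vein secrete. Among the largest rises outside the list was Ehd3, a membrane trafficking protein of liver endothelium, with 7.29, 6.81, 6.90, 7.13 and 6.87 at day 1 and 8.85, 8.40, 9.32, 9.51 and 8.37 at day 3 (1.89 ± 0.26, adjusted p = 2.55e-05). The mannose receptor Mrc1, carried by sinusoidal endothelium and macrophages, rose by 1.77 with all arrays and by 2.05 without the 2.

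At day 1 these markers were lower in ligated than in most sham arrays. The mean over the 20 markers was 6.72 to 7.09 in the BDL arrays of day 1 and 7.54 to 8.27 in those of day 3, while it was 7.05 and 7.25 in the low-spread sham arrays of day 1, 7.74 in sham day 1 replicate 2, and 7.81 and 7.89 in the sham arrays of day 3. The sham step had a median of 0.50 over the list. For Kdr the step in ligated livers exceeded that in sham livers by 0.52 (adjusted p = 0.6) and for Clec4g by 0.92 (adjusted p = 0.421), so neither step was shown to differ.

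**Figure D1:**
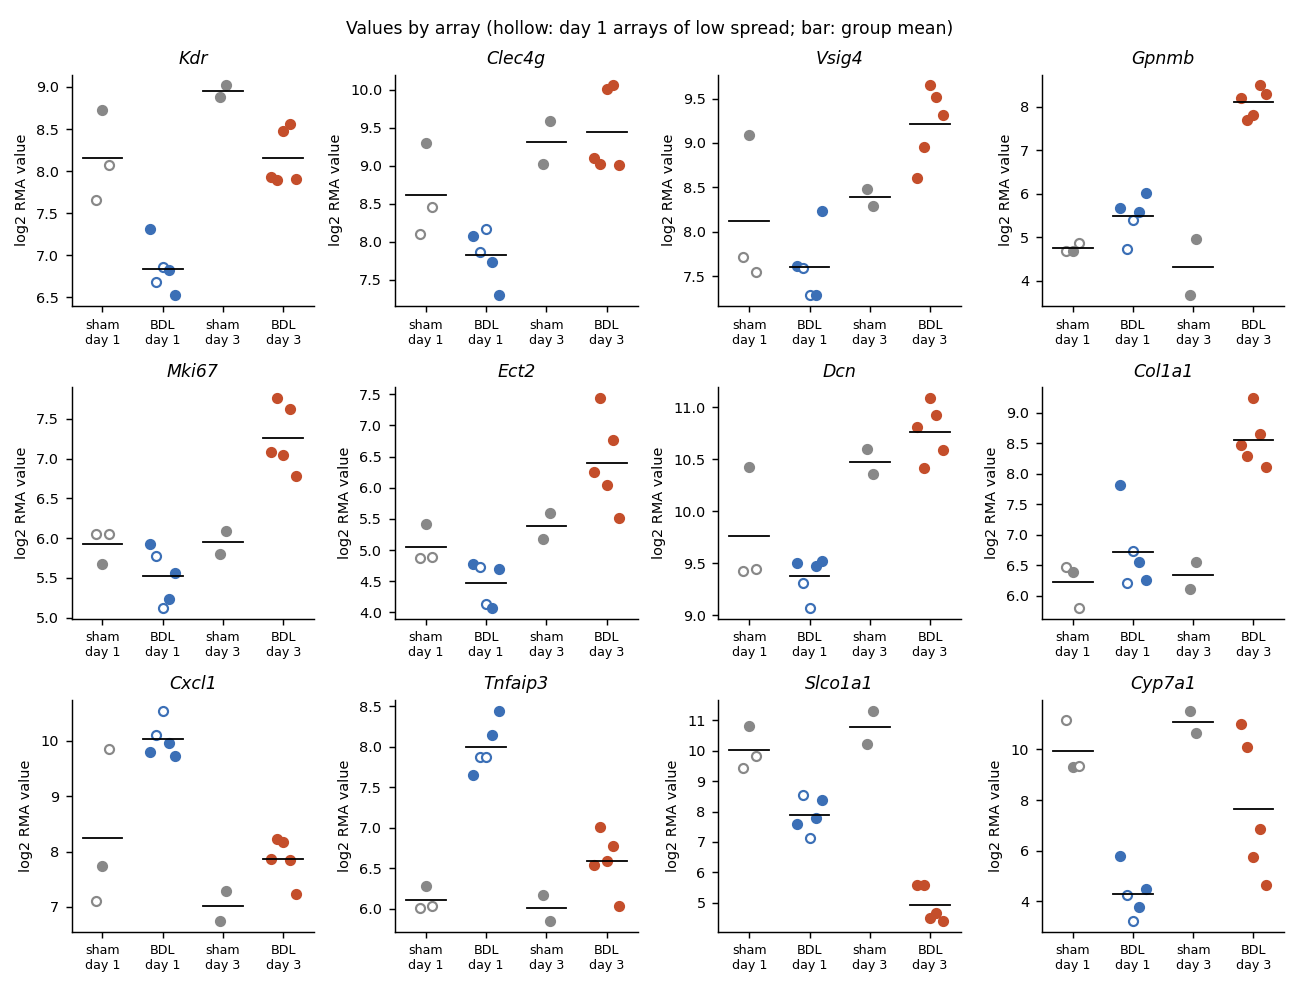
Log2 RMA values of 12 genes in each array of the 4 groups, with sham at day 1 and day 3 in grey, BDL day 1 in blue and BDL day 3 in red; hollow points are day 1 arrays of low spread and the bar is the group mean. Kdr at day 3 lies at 7.90 to 8.56, above the 6.52 to 7.32 of day 1, whereas Cyp7a1 spans 4.62 to 10.99 at day 3.

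Macrophage genes rose alongside. Of 15 Kupffer cell markers 11 rose (10 without the 2 low-spread arrays), with a median of 0.78. C1qb, a chain of the complement component C1q, read 8.26, 7.84, 7.52, 7.56 and 8.83 at day 1 and 9.58, 9.42, 9.91, 10.37 and 9.99 at day 3. The groups did not overlap, and it rose by 1.85 ± 0.26 (adjusted p = 2.55e-05). Vsig4, the complement receptor of resident macrophages, read 7.61, 7.59, 7.28, 7.29 and 8.23 at day 1 and 8.61, 8.96, 9.65, 9.52 and 9.31 at day 3 (1.61 ± 0.25, adjusted p = 8.06e-05). Clec4f, a lectin confined to Kupffer cells in mice, rose by 0.76, and Adgre1, which encodes F4/80, by 1.25. Timd4, a phosphatidylserine receptor of long-lived Kupffer cells, rose by 0.66 with all arrays but did not pass without the 2 (0.48, adjusted p = 0.209) nor when day 3 replicate 2, 3 or 4 or day 1 replicate 3 or 4 was left out (adjusted p up to 0.0846). Marco (0.47) and Id3 (-0.51) did not pass the test. Day 1 replicate 5 was the highest of its group for C1qb, Vsig4 and Adgre1.

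Of 15 genes of monocytes and their macrophage progeny 9 rose, and 5 did without the 2 low-spread arrays. Cd68, a lysosomal glycoprotein of macrophages, read 8.60, 7.72, 7.98, 8.31 and 9.27 at day 1 and 9.38, 9.56, 9.53, 10.06 and 9.74 at day 3, a rise of 1.28 ± 0.22 (adjusted p = 0.000259) without overlap. Csf1r, the receptor for the macrophage growth factor, rose by 1.23. Cybb, a subunit of the phagocyte oxidase, rose by 1.4 with all arrays, but its day 1 arrays ran from 6.12 to 9.05 and it did not pass without the 2 (0.72, adjusted p = 0.235). Ly6c2 and Ccr2, which mark blood monocytes, did not pass the test, at -0.29 and 0.29, and Ly6c2 had both means under 5, the level of the filter on dim genes, below which a value is not told apart from background.

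Gpnmb, a transmembrane glycoprotein of lipid-loaded and scar-associated macrophages, had the largest rise of any gene named here whose arrays did not overlap. It read 5.68, 4.73, 5.39, 5.58 and 6.02 at day 1 and 8.20, 7.70, 7.81, 8.50 and 8.29 at day 3, a rise of 2.62 ± 0.26 (adjusted p = 4.09e-07) and of 2.34 without the 2 arrays. Sham livers lay at 4.69 to 4.88 at day 1 and at 3.66 and 4.96 at day 3. The step in ligated livers exceeded the sham step by 3.06 ± 0.455 (adjusted p = 0.00151), a size that is not firm because the sham arrays lie under the filter level. Of 13 genes of such lipid-associated macrophages 7 rose (4 without the 2), among them Trem2, a lipid receptor (0.83), and Lgals3, galectin 3 (0.81). Atp6v0d2, a subunit of the proton pump, rose from a day 1 mean under the filter level, 4.95, to 6.55 (adjusted p = 0.00107). The lipid droplet coat gene Plin2, which hepatocytes also express, fell by 0.92. In the lysosomal list 14 of 23 genes rose with all arrays and 6 without the 2. They included the cathepsins Ctss (1.44) and Ctsb (0.98) and the legumain gene Lgmn (0.86).

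Genes of cell division rose, many of them from the background range. Of 30 genes of mitosis 22 rose, with a median of 0.65, and 15 did without the 2 low-spread arrays. Of 32 genes of DNA replication 20 rose (median 0.57), and 14 did without the 2. For mitosis the count was 14 when day 3 replicates 1 and 2 were left out together, an alternative chosen after seeing the data. Mki67, the proliferation antigen, read 5.93, 5.78, 5.12, 5.23 and 5.56 at day 1 and 7.08, 7.76, 7.04, 7.62 and 6.78 at day 3. The groups did not overlap, and the rise was 1.73 ± 0.22 (adjusted p = 8.46e-06). Ect2, the exchange factor that starts cytokinesis, read 4.78, 4.73, 4.13, 4.07 and 4.69 at day 1 and 6.26, 7.44, 6.04, 6.77 and 5.52 at day 3. Its day 1 mean of 4.48 lies under the filter level of 5, so the fitted rise of 1.93 ± 0.27 (adjusted p = 2.59e-05) gives no size. The same holds for Anln, Prc1 and Top2a, with day 1 means of 4.22, 4.39 and 4.17.

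Among replication genes, Rrm1, the large subunit of ribonucleotide reductase, read 5.95, 4.83, 4.92, 5.21 and 5.34 at day 1 and 6.34, 7.49, 6.68, 6.71 and 6.52 at day 3 (1.5 ± 0.19, adjusted p = 1.01e-05). Mcm6, a subunit of the replicative helicase, read 5.88, 5.14, 5.11, 5.55 and 5.86 at day 1 and 6.23, 8.06, 6.46, 6.92 and 6.19 at day 3 (1.26 ± 0.25, adjusted p = 0.00102). In both genes day 3 replicate 2 was the highest array and the groups did not overlap. Mcm5 rose by 1.25, with day 3 replicate 5 (5.40) just under day 1 replicate 1 (5.48). Pcna, the sliding clamp, rose by 0.86 and did not overlap. The mean over the replication list was 6.89 in day 3 replicate 2 and 5.96 to 6.43 in the other day 3 arrays, and that over the mitosis list 6.05 and 5.18 to 5.79. All 5 lay above the day 1 arrays, which spanned 5.58 to 5.79 for replication and 4.72 to 4.87 for mitosis. Sham arrays spanned 5.79 to 5.95 at day 1 and 5.74 to 5.81 at day 3 for replication. For mitosis they spanned 4.89 to 5.178 and 4.83 to 4.91. The highest sham arrays thus lay just under the lowest BDL day 3 arrays, 5.961 for replication and 5.182 for mitosis.

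Regulators of entry into the cycle showed no such pattern. Of 21 G1 cyclins, kinases, E2F factors and inhibitors 4 rose, led by the retinoblastoma gene Rb1 (0.67). None of the 21 passed in limma without the 2 low-spread arrays (Rb1 read 0.42, adjusted p = 0.0701). In that fit 4 of them, and 3188 of all 14699 genes, had an unadjusted p under 0.05. Ccnd1, cyclin D1, read 9.23, 8.47, 8.57, 9.62 and 9.33 at day 1 and 8.48, 9.49, 9.18, 9.42 and 8.03 at day 3. The groups overlapped fully, with a difference of -0.12 ± 0.26 (adjusted p = 0.776). Sham arrays lay at 6.66 to 7.74, below every ligated array at either day. Cdkn1a, the p21 inhibitor, differed by -0.01 ± 0.28 and Myc by 0.33 ± 0.32. Likewise the sham values of Cdkn1a, 5.48 to 6.85, lay below all 10 ligated ones, 8.28 to 10.07.

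Promoters of the cell division genes are shown because their lists moved together and differ in known control elements. The CHR element TTTGAA and the CCAAT box bind the complexes that switch on late cell cycle genes, and TTTGGCGC and TTTCCCGC are forms of the E2F site of early ones. Each promoter runs from 250 bases before to 50 bases after the start of a RefSeq transcript in GRCm38.p6, and both strands were searched. Of 30 mitosis genes tested 25 had a promoter in the table, and of 32 replication genes 29, some with more than 1 start. Capitals mark CHR elements and CCAAT boxes in Ccnb2 (chr9:70421505-70421804, minus strand) and Mki67 (chr7:135716330-135716629, minus strand), and an E2F site of the first form and CCAAT boxes in Mcm5 (chr8:75109259-75109558, plus strand). Either strand's letters may appear, so that a CCAAT box can read ATTGG and the E2F site GCGCCAAA.
Ccnb2: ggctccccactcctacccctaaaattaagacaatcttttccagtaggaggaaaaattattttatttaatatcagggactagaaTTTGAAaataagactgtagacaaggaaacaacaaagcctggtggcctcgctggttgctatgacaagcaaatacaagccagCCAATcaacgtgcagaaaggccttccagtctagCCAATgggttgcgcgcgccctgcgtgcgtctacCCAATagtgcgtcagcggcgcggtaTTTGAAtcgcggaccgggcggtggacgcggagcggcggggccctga
Mki67: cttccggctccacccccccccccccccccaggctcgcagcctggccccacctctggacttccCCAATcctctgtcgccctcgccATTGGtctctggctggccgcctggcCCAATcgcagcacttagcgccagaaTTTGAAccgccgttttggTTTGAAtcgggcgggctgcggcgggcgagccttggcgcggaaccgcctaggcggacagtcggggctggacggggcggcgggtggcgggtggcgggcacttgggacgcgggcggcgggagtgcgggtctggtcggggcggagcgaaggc
Mcm5: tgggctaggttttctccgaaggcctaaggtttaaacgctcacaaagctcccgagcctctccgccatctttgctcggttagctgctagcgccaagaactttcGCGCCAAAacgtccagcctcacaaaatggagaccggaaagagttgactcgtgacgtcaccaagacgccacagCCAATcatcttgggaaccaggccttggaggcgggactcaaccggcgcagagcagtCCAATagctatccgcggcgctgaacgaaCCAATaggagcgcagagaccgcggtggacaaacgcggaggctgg

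The CHR element was found in 23 of 27 promoters of mitosis genes, 85.2%, against 12.2% of the 14415 promoters of all genes tested and 11.8% of those of replication genes. Among the mitosis genes that rose it was in 17 of 21, 81.0%. The CCAAT box was in 85.2% of the mitosis promoters and 58.8% of the replication promoters, against 36.8% of all. The first form of the E2F site was in 6 of 34 replication promoters, 17.6%, against 0.832% of all, and in none of the 27 mitosis promoters. All 6 of these genes rose. The second form was also in 17.6% of the replication promoters, against 1.8% of all, and in none of the mitosis promoters, and 2 of the 6 genes that hold it rose. A match describes the letters and is neither a shown binding site nor a cause. Ccnb2, cyclin B2, which was named here for its promoter, read 4.70 to 5.45 at day 1 and 5.38 to 6.63 at day 3 (1.12 ± 0.21, adjusted p = 0.000737), with 1 day 3 array inside the day 1 range.

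**Figure D2:**
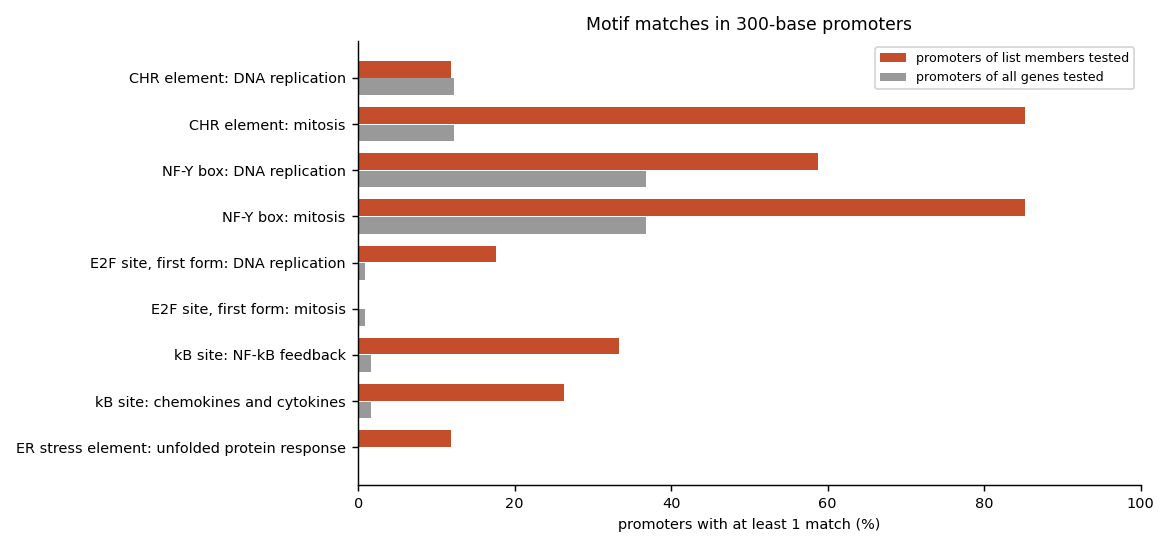
Share of promoters, in percent, that hold at least 1 match of a motif, for the members of a list (red) and for all genes tested (grey); NF-Y box stands for the CCAAT box. The CHR element reaches 85.2% in mitosis against 12.2% in all promoters.

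Genes of stellate cells and of the matrix rose. Of 21 markers of stellate cells and myofibroblasts 13 rose (median 0.92), and 8 did without the 2 low-spread arrays. Dcn, the proteoglycan decorin, read 9.50, 9.31, 9.07, 9.47 and 9.52 at day 1 and 10.81, 10.41, 11.09, 10.93 and 10.59 at day 3 (1.39 ± 0.16, adjusted p = 3.21e-06). Bgn, its relative biglycan, read 10.26, 9.29, 9.21, 9.66 and 9.82 at day 1 and 11.54, 11.15, 11.77, 11.76 and 11.22 at day 3 (1.84 ± 0.23, adjusted p = 9.67e-06). Neither gene overlapped between the groups. For Dcn the sham arrays of day 3, 10.60 and 10.35, lay about as high as the ligated ones, and the difference between the steps did not pass (0.68, adjusted p = 0.395). The sham step of Bgn was 0.895 (adjusted p = 0.179), and its difference between the steps did not pass either (0.946, adjusted p = 0.414). Lum, lumican, passed the test, but its day 1 mean was 4.73, under the filter level. Acta2, the actin of activated stellate cells, rose by 0.92 ± 0.26 (adjusted p = 0.0139) with overlap, and not without the 2 arrays (0.89, adjusted p = 0.0748). Tagln, a contractile protein gene, and Thy1, a fibroblast surface marker, did not pass the test, at 0.16 and -0.03.

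Of 16 collagen genes 6 rose with all arrays and 1, Col14a1 (0.82, adjusted p = 0.0306), without the 2, and under either other scaling 1 fell. The means of Col14a1 at day 1 and day 3 were 6.002 and 7.068 in BDL, below the 6.897 and 7.505 in sham. Its arrays overlapped, and its difference between the steps did not pass (0.457, adjusted p = 0.757). Col1a1, a chain of the main scar collagen, read 7.81, 6.21, 6.73, 6.55 and 6.27 at day 1 and 8.46, 8.30, 9.24, 8.65 and 8.11 at day 3. The groups did not overlap, with 7.81 in day 1 replicate 1 the nearest, and the rise was 1.84 ± 0.48 (adjusted p = 0.00898). Without the 2 low-spread arrays it was 1.68 (adjusted p = 0.0734). Col3a1 rose by 1.53, and by 1.22 without the 2 (adjusted p = 0.0602). Sham values of Col1a1 stayed between 5.80 and 6.56.

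Among proteases and inhibitors of the matrix 7 of 14 rose, and 5 of these also without the 2 arrays. Mmp7, matrilysin, read 6.07, 5.71, 6.53, 6.53 and 5.95 at day 1 and 7.39, 6.75, 7.29, 7.43 and 7.11 at day 3 (1.04 ± 0.17, adjusted p = 0.000155). Its sham values were 5.38 to 5.78 at day 1 and 4.87 and 5.08 at day 3, and the difference between the steps was 1.67 ± 0.298 (adjusted p = 0.0142), with the sham mean of day 3 under the filter level. The inhibitors Timp3 and Timp2 rose by 1.31 and 0.89. Timp1, the inhibitor most tied to fibrosis, rose by 0.67 (adjusted p = 0.0457) but did not pass without the 2 (adjusted p = 0.192) nor when day 3 replicate 1, 3, 4 or 5 or day 1 replicate 2, 3, 4 or 5 was left out (adjusted p up to 0.126). For Timp3 the sham step was 1.53, which did not pass (adjusted p = 0.0677).

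Bile duct genes changed less uniformly. Of 14 cholangiocyte markers 5 rose, and 3 did so without the 2 low-spread arrays or when day 3 replicate 1, day 3 replicate 4 or day 1 replicate 2 was left out. Muc1, a mucin of duct cells, read 5.63, 5.74, 5.15, 6.04 and 6.08 at day 1 and 7.04, 6.69, 7.07, 7.11 and 6.64 at day 3 (1.18 ± 0.18, adjusted p = 8.06e-05). Krt19, the duct keratin, read 5.87, 5.37, 5.81, 5.36 and 5.70 at day 1 and 6.37, 6.13, 6.66, 6.35 and 5.97 at day 3 (0.68 ± 0.12, adjusted p = 0.000308). Both genes were free of overlap, and both passed without the 2 low-spread arrays. Cd24a rose by 0.96. Epcam rose by 0.62 and did not pass without the 2 (adjusted p = 0.146) nor when day 3 replicate 1, 3 or 4 or day 1 replicate 2, 4 or 5 was left out (adjusted p up to 0.114). Krt7 had no overlap but did not pass (0.45 ± 0.185, adjusted p = 0.0912). Sox9, the duct transcription factor, read 8.30 to 9.84 at day 1 and 8.40 to 9.09 at day 3 (-0.31, adjusted p = 0.367), above the sham range of 7.09 to 7.76 at both days. Anxa3, an annexin, was a gene whose step differed from sham: it read 6.33, 5.86, 6.38, 5.94 and 6.16 at day 1 and 7.28, 7.01, 7.43, 7.58 and 7.54 at day 3 (1.23 ± 0.13), a difference between the steps of 1.16 ± 0.23 (adjusted p = 0.0301).

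**Figure D3:**
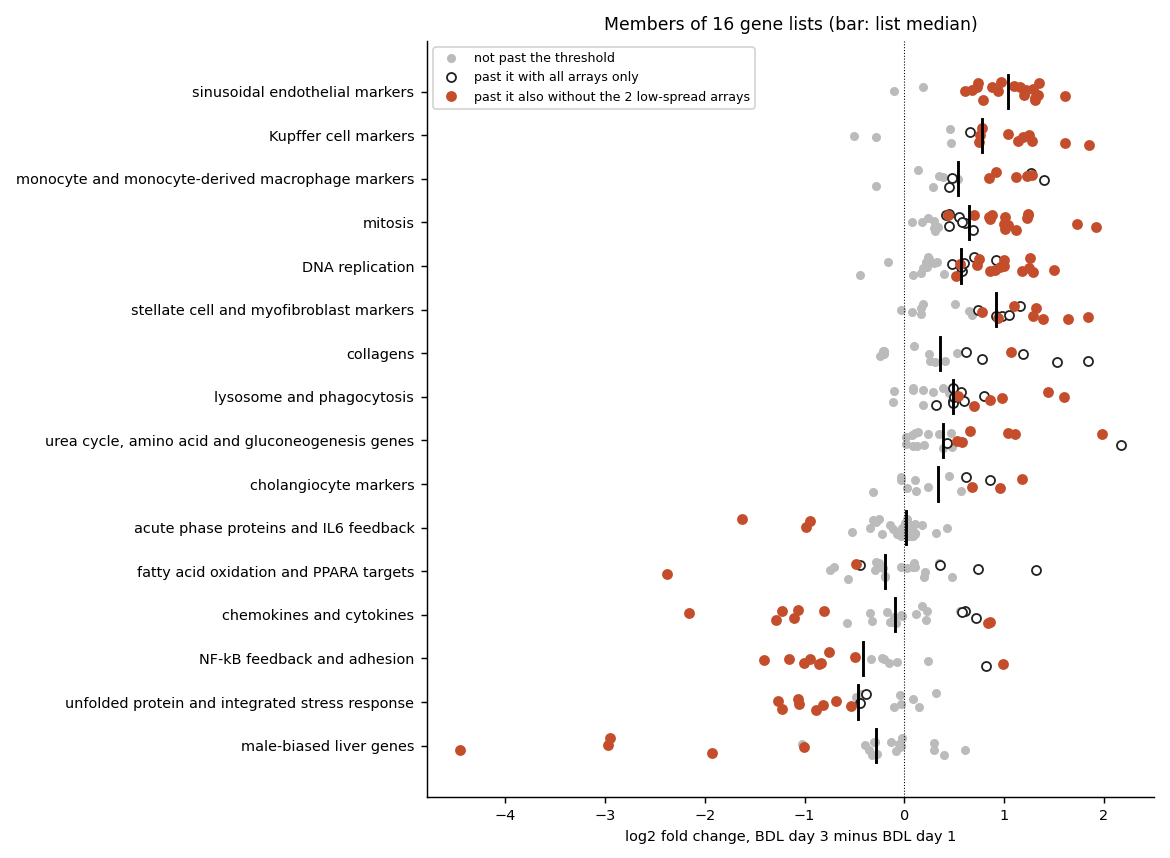
Log2 fold changes, BDL day 3 minus BDL day 1, of the tested members of 16 gene lists; red points passed the test with and without the 2 low-spread arrays, hollow points with all arrays only, grey points did not pass, and the bar is the list median. Sinusoidal markers lie right of 0 at a median of 1.04, and the unfolded protein list lies left of 0 at -0.47.

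Over the same interval most genes of NF-kB feedback that passed the test fell. Of 16 genes of NF-kB feedback and adhesion 8 fell and 2 rose (median -0.42), and 9 fell and 1 rose without the 2 low-spread arrays. Tnfaip3, the A20 enzyme that shuts NF-kB signalling down, read 7.66, 7.88, 7.87, 8.15 and 8.44 at day 1 and 6.54, 7.01, 6.59, 6.78 and 6.04 at day 3. The groups did not overlap, and it fell by 1.41 ± 0.15 (adjusted p = 6.51e-07). Sham arrays lay at 5.85 to 6.29, and the difference between the steps was -1.31 ± 0.26 (adjusted p = 0.0348). Nfkbia, the inhibitor IkB alpha, read 9.84, 10.00, 9.74, 10.09 and 9.85 at day 1 and 8.66, 9.01, 8.85, 8.94 and 9.05 at day 3, and it fell by 1.00 ± 0.13 (adjusted p = 1.26e-05) without overlap. The subunit genes Nfkb2 and Relb fell by 0.75 and 0.49, the bacterial lipoprotein receptor Tlr2 by 1.16 and the adhesion molecule Icam1 by 0.86. Vcam1 and Selp, adhesion molecules of endothelium, rose by 0.99 and 0.82. Of these, only Vcam1 passed without the 2 low-spread arrays (0.70, adjusted p = 0.0294).

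Of 26 chemokines and cytokines 6 fell and 5 rose, 7 and 2 without the 2 arrays, and 8 and 4 with centred arrays. Cxcl1, the main neutrophil attractant, read 9.80, 10.11, 10.54, 9.96 and 9.73 at day 1 and 7.87, 8.23, 8.18, 7.85 and 7.24 at day 3. It fell by 2.16 ± 0.31 (adjusted p = 3.91e-05), with no overlap. Its sham arrays read 7.11, 7.74 and 9.86 at day 1, and 6.74 and 7.30 at day 3. Ccl2, the monocyte attractant, read 8.14, 7.74, 7.29, 8.91 and 9.14 at day 1 and 7.00, 7.43, 6.75, 7.18 and 6.72 at day 3. It fell by 1.23 ± 0.25 (adjusted p = 0.00137), and by 1.71 without the 2 low-spread arrays, of which replicate 3 overlapped with day 3. Cxcl10, induced by interferon, fell by 1.28, and by 1.93 without the 2, which read 6.99 and 6.44. Cxcl2, Il1b and Tnf fell by 1.11, 1.06 and 0.80, and Il1b did not pass when day 3 replicate 3 or 5 or day 1 replicate 5 was left out (adjusted p up to 0.0851). The rises were in Ccl24 (0.86) and Ccl6 (0.84), macrophage chemokines, in Tgfb1 (0.72), the fibrogenic cytokine, in the alarmin Il33 (0.61) and in Cxcl16. Of these Ccl24 and Ccl6 passed without the 2, and Ccl6 did not pass when day 3 replicate 5 was left out (adjusted p up to 0.0514).

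The kB site, searched after the values were seen as GGG and TTTCC parted by 2 bases on either strand, is printed for a chemokine and an inhibitor that fell. Capitals mark it in Cxcl1 (chr5:90890995-90891294, plus strand) and Nfkbia (chr12:55492598-55492897, minus strand).
Cxcl1: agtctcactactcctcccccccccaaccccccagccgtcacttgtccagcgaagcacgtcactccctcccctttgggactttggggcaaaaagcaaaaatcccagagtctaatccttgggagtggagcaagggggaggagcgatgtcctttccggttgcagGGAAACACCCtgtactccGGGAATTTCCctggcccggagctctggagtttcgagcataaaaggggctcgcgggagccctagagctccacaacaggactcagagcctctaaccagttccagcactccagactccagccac
Nfkbia: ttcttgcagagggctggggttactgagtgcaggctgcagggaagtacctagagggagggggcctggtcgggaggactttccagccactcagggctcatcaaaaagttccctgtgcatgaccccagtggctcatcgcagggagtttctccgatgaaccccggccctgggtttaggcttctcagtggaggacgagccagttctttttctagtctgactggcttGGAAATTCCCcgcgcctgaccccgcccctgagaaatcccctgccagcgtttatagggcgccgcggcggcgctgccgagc

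It was in 5 of 9 promoters of the NF-kB genes that fell, which belong to Nfkb2, Nfkbia and Tnfaip3. Among the cytokines that fell it was in 2 of 5 promoters, those of Cxcl1 and Cxcl2. Over all members tested it was in 5 of 15 NF-kB promoters and 5 of 19 cytokine promoters, against 1.65% of all promoters. The other cytokine genes that hold it, Ccl20, Ccl9 and Csf1, did not pass the test.

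Few acute phase genes passed the test. Of 30 tested 3 fell: Saa3, a serum amyloid made by macrophages and epithelia, by 1.63 ± 0.36 (adjusted p = 0.00251), Steap4, a metalloreductase, by 0.98 and Il1rn, the IL1 receptor antagonist, by 0.95. Saa3 read 11.52, 11.20, 10.37, 11.28 and 11.88 at day 1 and 9.93, 10.30, 9.0, 9.49 and 9.39 at day 3. Without the 2 low-spread arrays 4 acute phase genes fell. In sham livers the difference in Saa3 was -2.33 (adjusted p = 0.0455), a call lost when sham day 1 replicate 1 or 3 was left out and with the low-spread array set as a term. Lcn2, lipocalin 2, lay at 13.20 to 13.59 and 12.93 to 13.27 and did not pass (-0.31, adjusted p = 0.585). Cd14, the lipopolysaccharide coreceptor, differed by -0.52 (adjusted p = 0.211) with all arrays and fell by 1.12 (adjusted p = 0.00592) without the 2. Without day 1 replicate 2 alone Cd14 also passed. The neutrophil genes S100a8 and S100a9 fell (adjusted p = 0.0118 and 0.00367) to day 3 means of 4.96 and 4.42, under the filter level, and the other 10 neutrophil markers tested did not pass.

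Stress genes of the endoplasmic reticulum that passed the test all fell. Of 18 genes of the unfolded protein and integrated stress response 10 fell (median -0.47), and 8 did without the 2 low-spread arrays. Hyou1, a chaperone of the reticulum, read 10.70, 10.39, 11.03, 10.99 and 10.86 at day 1 and 9.64, 9.30, 9.84, 9.67 and 9.20 at day 3 (-1.27 ± 0.23, adjusted p = 0.000467). Creld2, a reticulum factor induced by misfolded protein, read 9.18, 8.85, 9.65, 9.85 and 9.80 at day 1 and 8.59, 8.00, 8.63, 8.54 and 8.26 at day 3 (-1.06 ± 0.23, adjusted p = 0.00209). Both were free of overlap. The transcription factor Atf5 fell by 1.23, the hormone gene Fgf21 by 1.06, Sdf2l1 by 0.88, Manf by 0.82, Ddit3, which encodes CHOP, by 0.69 and Hspa5, which encodes BiP, by 0.53. Xbp1 (-0.10), Herpud1 (-0.04) and Asns (0.31) did not pass. The sham arrays of Hyou1 spanned 9.28 to 10.51, across the day 3 range, and its difference between the steps did not pass (-0.79, adjusted p = 0.527).

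The ER stress element, CCAAT and CCACG parted by 9 bases, was searched after the values were seen, and it contains a CCAAT box. It is in capitals, on the opposite strand, in the promoter of Creld2 (chr15:88819396-88819695, plus strand).
Creld2: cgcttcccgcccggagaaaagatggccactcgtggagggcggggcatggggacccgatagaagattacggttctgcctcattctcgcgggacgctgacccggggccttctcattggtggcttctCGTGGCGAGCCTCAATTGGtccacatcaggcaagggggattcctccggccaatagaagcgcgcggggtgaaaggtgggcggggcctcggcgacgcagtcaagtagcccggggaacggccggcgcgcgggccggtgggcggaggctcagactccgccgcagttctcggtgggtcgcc

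It was in 2 of 9 promoters of the members that fell, those of Creld2 and Hspa5. Over all members tested it was in 2 of 17 promoters, against 0.132% of all promoters.

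Of 24 immediate early genes 7 fell, 4 without the 2 low-spread arrays and 4 when day 1 replicate 3 alone was left out. Gadd45b, a stress sensor, fell by 0.90 and Atf3, a stress-induced transcription factor, by 0.71, which did not pass when day 1 replicate 3 or 4 was left out (adjusted p up to 0.0624). Junb fell by 0.76 and did not pass without the 2 low-spread arrays (adjusted p = 0.0832), whereas Fos did not pass with all arrays (-0.54, adjusted p = 0.0693) and passed without them (-0.81, adjusted p = 0.0261), under both other scalings (adjusted p = 0.0461 and 0.0358) and with the low-spread array set as a term (adjusted p = 0.0363).

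**Figure D4:**
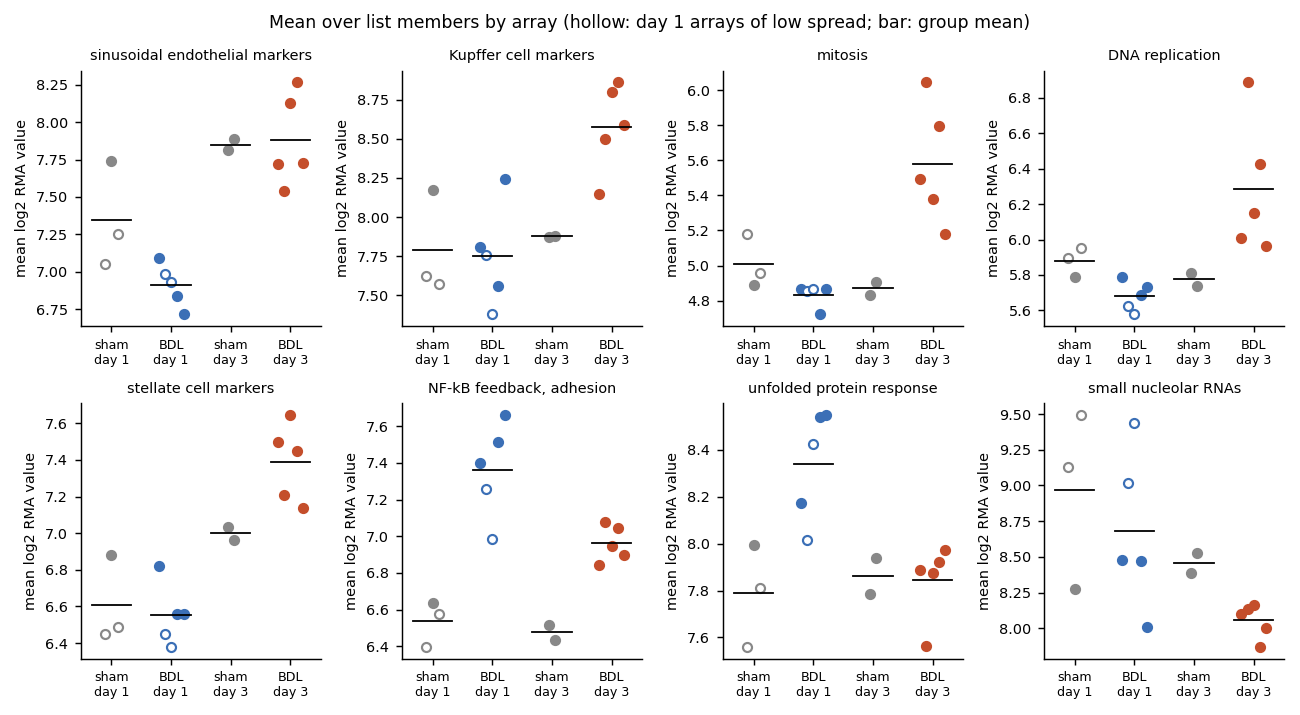
Mean log2 RMA value over the tested members of 8 lists in each array, drawn as in the plot of single genes. Replication reaches 6.89 in day 3 replicate 2, and the small nucleolar RNAs stand at 9.02 and 9.43 in the hollow BDL day 1 arrays.

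Genes of bile acid handling moved one by one rather than as lists. Cyp7a1, the rate-limiting enzyme of bile acid synthesis, read 5.78, 4.23, 3.21, 3.76 and 4.47 at day 1 and 10.99, 10.08, 5.74, 6.84 and 4.62 at day 3. Day 3 replicates 1 and 2 were in the sham range of 9.32 to 11.53, and replicates 3 and 5 were inside the day 1 range. The rise passed the test (3.36 ± 0.745, adjusted p = 0.0026), also without the 2 low-spread arrays (2.99, adjusted p = 0.0371), but not when only the other 8 ligated arrays were fitted (adjusted p = 0.197). The day 1 mean of 4.29 was under the filter level, so the rise has no firm size. Cyp8b1, the enzyme of cholic acid synthesis, stayed low in both groups, at 4.79 to 5.75 and 4.33 to 7.30, with sham at 9.89 to 11.09. Of 17 genes of bile acid synthesis 4 rose, and 2 did without the 2 low-spread arrays or when day 3 replicate 2, day 1 replicate 3 or day 1 replicate 4 was left out. Slc10a1, the sodium-dependent uptake carrier NTCP, read 9.86 to 11.07 at day 1 and 11.04 to 11.71 at day 3, a rise of 0.97 ± 0.205 (adjusted p = 0.0018), with day 1 replicate 1 just above the lowest day 3 array.

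Slco1a1, an organic anion uptake carrier higher in males, went the other way. It read 7.57, 8.53, 7.14, 7.79 and 8.39 at day 1 and 5.57, 5.59, 4.48, 4.66 and 4.39 at day 3, where the mean of 4.94 was under the filter level. The arrays did not overlap (adjusted p = 9.14e-07), sham lay at 9.43 to 11.32, and the difference between the steps passed (adjusted p = 0.00151). Of 11 pumps of the canaliculus, the bile-facing membrane, 2 fell and 2 rose, and with centred arrays 2 fell and none rose. Abcb4, the phospholipid flippase, read 11.32, 11.84, 11.62, 11.64 and 11.74 at day 1 and 10.31, 11.22, 10.77, 11.08 and 10.60 at day 3 (-0.84 ± 0.16, adjusted p = 0.00088). Abcb11, the bile salt pump, fell by 0.62 ± 0.20 (adjusted p = 0.032), and not without the 2 arrays (adjusted p = 0.0503) nor when day 3 replicate 3, 4 or 5 or day 1 replicate 1, 2, 4 or 5 was left out (adjusted p up to 0.121). The rises, in Abcg2 and Abcg5, were called with all arrays only. Abcc4, a basolateral efflux pump, rose by 0.56, and not without the 2 (adjusted p = 0.0713). Nr1h4, the bile acid receptor FXR, rose by 0.35 ± 0.11 (adjusted p = 0.0282), which did not pass with cyclic loess (adjusted p = 0.181) or centred arrays (adjusted p = 0.0887) nor when day 3 replicate 1 or day 1 replicate 1 or 4 was left out (adjusted p up to 0.0802). Its target Nr0b2 differed by -0.67 (adjusted p = 0.152).

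Hepatocyte metabolism moved in both directions. Of 21 genes of the urea cycle, amino acid use and gluconeogenesis 8 rose, 6 without the 2 arrays, and the median was 0.39. Got1, the cytosolic aspartate transaminase, read 10.92, 9.43, 9.35, 9.53 and 9.77 at day 1 and 12.46, 11.49, 11.66, 11.12 and 12.19 at day 3 (1.98 ± 0.29, adjusted p = 3.91e-05). Day 1 replicate 1 was nearest to day 3, and the groups did not overlap. Fbp1, the fructose bisphosphatase, rose by 1.11, Asl, argininosuccinate lyase, by 1.04 and Cps1, the first enzyme of the urea cycle, by 0.58, all without overlap. G6pc, the glucose phosphatase, rose by 2.17 ± 0.56 (adjusted p = 0.00808) with overlap, and not without the 2 (1.78, adjusted p = 0.0969). Among secreted plasma proteins 4 of 35 rose, near the share of 12.0% over all genes, and none fell. The rises were led by Pros1, protein S (1.29), which endothelium also makes, and Igf1 (0.73). An unadjusted p under 0.05 in limma was found for 13 of the 35 and for 4756 of all 14699 genes. The split turned with cyclic loess, under which 3 rose and 7 fell, and with centred arrays it was 3 and 5. Without the 2 low-spread arrays 2 rose and 1 fell. Cyp2e1, an enzyme of the hepatocytes around the central vein, did not pass (0.02), and neither did Glul, glutamine synthetase of the same cells (0.51, adjusted p = 0.196), which passed only without day 1 replicate 5.

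Genes that are higher in male than in female liver were among those that fell. Of 22 such genes tested 5 fell, with and without the 2 low-spread arrays, and 8 did under either other scaling. Mup21, a major urinary protein whose family shares near-identical copies so that its value is uncertain, read 8.04, 8.68, 8.42, 7.71 and 7.29 at day 1 and 4.29, 3.94, 3.36, 3.23 and 3.06 at day 3. All day 3 values are in the background range, and no size is given (adjusted p = 2.71e-10). Elovl3, a fatty acid elongase, read 10.01, 10.22, 9.16, 9.39 and 10.49 at day 1 and 6.48, 7.53, 6.30, 6.84 and 7.26 at day 3. It fell by 2.97 ± 0.41 (adjusted p = 2.08e-05), and its sham values were 10.38 to 12.09. Cyp4a12a, an omega hydroxylase with near-identical copies, fell by 1.92 ± 0.31 (adjusted p = 0.000155). The other members, Mup3 (-0.40) and Mup20 (-0.30) among them, did not pass apart from Serpina1e (-1.0), and Hsd3b5 was in the background range at both days. Of 11 genes higher in females 5 rose, led by Fmo2 (1.6), and 1, Fmo2, passed without the 2 low-spread arrays.

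Fabp1, the fatty acid carrier of hepatocytes, read 11.42, 11.55, 11.62, 11.67 and 11.51 at day 1 and 8.13, 10.06, 7.81, 10.02 and 9.86 at day 3. It fell by 2.38 ± 0.36 (adjusted p = 5.78e-05), and day 3 replicates 1 and 3 were the lowest. Of the 25 genes of fatty acid oxidation tested, Fabp1 among them, 3 fell and 3 rose. Without the 2 low-spread arrays 2 fell and none rose in limma, and under either other scaling 7 fell and 2 rose. Without those 2 arrays 9 of the 25 had an unadjusted p under 0.05 in either direction, against 3188 of all 14699 genes. Dio1, the thyroid hormone deiodinase, fell by 1.58, and Ces2a, a carboxylesterase with near-identical relatives, by 1.58. Both kept their calls without the 2 arrays. Sult2a8, a bile acid sulfotransferase of liver, read 6.58 to 7.97 at day 1 and 4.21 to 4.91 at day 3, in the background range, with sham at 10.66 to 11.48.

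The same interval in sham livers was compared as the background of surgery and time. There 43 genes changed, 0.293% of those tested, but this count rested on single arrays: it was 1764 without sham day 1 replicate 2, 0 without replicate 1 (1781 genes at an unadjusted p under 0.05) and 1 without replicate 3. The step in BDL minus that in sham passed for 11 genes (0.0748%), 4 with a higher and 7 with a lower step in BDL. Only 2 of these 11 were called without the 4 day 1 arrays of low spread, where 4 genes passed in all, and 5 of the 11 with array weights. Beside Gpnmb, Mmp7, Anxa3, Tnfaip3, Slco1a1, Mup21, Sult2a8 and Cyp4a12a these were Vill, a villin relative (1.32, adjusted p = 0.00151), Me1, the malic enzyme (-1.41, adjusted p = 0.045), and Pex11a, a factor of peroxisome division (-1.12, adjusted p = 0.0231). For Vill the difference came with a sham step of -0.97, against 0.35 in BDL (adjusted p = 0.0327), and the BDL step did not pass when day 3 replicate 2, 3 or 5 or day 1 replicate 1, 2 or 3 was left out (adjusted p up to 0.076). The BDL step of Me1 (-0.55) did not pass when day 3 replicate 1 or day 1 replicate 5 was left out (adjusted p up to 0.0565). The number was 109 without sham day 1 replicate 2, 37 without sham day 3 replicate 1, 22 without BDL day 3 replicate 2, and 7 without BDL day 3 replicate 3 or without sham day 1 replicate 3. With 3 and 2 sham arrays, the steps of other genes in BDL and sham were not shown to differ. Before adjustment, 1508 of all 14699 genes had a p under 0.05 for this difference in limma. Such a p was found for 25 of 30 mitosis genes, 18 of 32 replication genes and 10 of 15 Kupffer cell markers. It was also found for 10 of 16 NF-kB genes, 8 of 20 sinusoidal endothelial markers, 6 of 21 stellate cell markers and 4 of 16 collagens. None of the 12 neutrophil or 11 T, NK and B cell markers had one. After adjustment no mitosis, replication or Kupffer cell gene passed for this difference, and all members share the same few sham arrays. The median sham step was -0.12 for mitosis and -0.10 for replication.

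Small nucleolar RNAs, guides of ribosomal RNA modification, moved with the array set of low spread. Of 71 tested 27 fell with all arrays and 3 without the 2, and leaving out day 1 replicate 3 alone left 12. The part of the low spread in these falls was not tested beyond these fits. Snora74a read 7.82, 9.67, 10.47, 7.76 and 6.35 at day 1, replicates 2 and 3 highest, and 5.67 to 5.99 at day 3. It fell by 2.57 ± 0.57 (adjusted p = 0.00268), and without the 2 the difference did not pass (-1.47, adjusted p = 0.0893). Rpph1, the RNA of ribonuclease P, fell by 1.70, and without the 2 it did not pass (-0.99, adjusted p = 0.14). With the low-spread array set as a term both passed, Snora74a at -1.32 (adjusted p = 0.00286) and Rpph1 at -0.82 (adjusted p = 0.0141), and they also passed when only the 8 other ligated arrays were fitted. Snord118, the U8 RNA, fell by 2.09 and still by 1.4 without them (adjusted p = 0.0112).

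**Figure D5:**
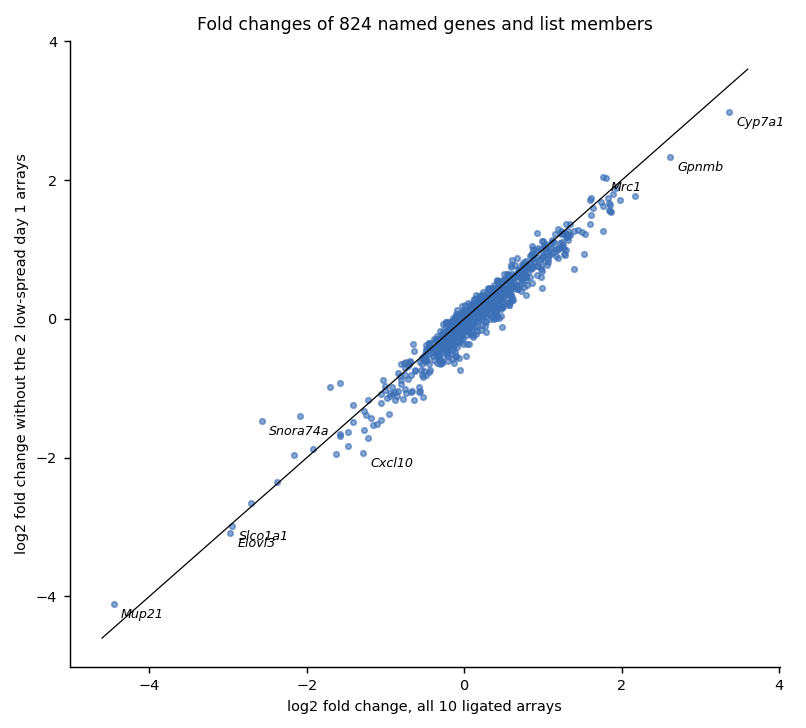
Log2 fold change of 824 named genes and list members with all 10 ligated arrays (horizontal) against the value without the 2 low-spread arrays (vertical); the line marks equality. Gpnmb lies at 2.62 and 2.34, and Snora74a lies off the line at -2.57 and -1.47.

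Several other lists held few calls. None of the 11 T, NK and B cell markers, 5 exocrine pancreas markers, 4 erythroid markers and 11 heat shock genes tested passed in limma, and none of them had an unadjusted p under 0.05. Without the 2 low-spread arrays 1 heat shock gene fell. Of 7 adipocyte markers none passed, and 1 had an unadjusted p under 0.05. Their fold changes ran from -0.21 to 0.28 for lymphocytes, from -0.17 to -0.10 for pancreas, from -0.19 to 0.21 for erythroid cells, from -0.57 to 0.25 for heat shock and from -0.73 to 0.56 for adipocytes. Of 19 cholesterol genes 2 rose and 1 fell, 1 each way without the 2 low-spread arrays or with cyclic loess, and the squalene epoxidase gene Sqle differed by -0.13 (adjusted p = 0.788). The sterol regulatory element TCACNCCAC was in 1 of their 18 promoters, 5.56%, against 1.22% of all. Afp, the fetal relative of albumin, differed by 0.35 (adjusted p = 0.096) and passed only with array weights or without day 3 replicates 1 and 2 together or without day 3 replicate 2. Hmox1, the heme oxygenase, differed by -0.06 (adjusted p = 0.831).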

How the data were processed

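Gene expression was measured on Affymetrix arrays in 29 mouse livers. The authors deposited log2 values made with RMA in oligo 1.52.0, per the submitters' processing notes. No source used here says which arrays shared a normalization. The array model in the labels' protocol differs from the Affymetrix design whose annotation the row IDs match. RMA pulls the arrays to a shared distribution, so changes that affect most genes in 1 direction are hidden, and dim values are compressed.

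Of 41345 rows, 23521 carried 1 gene symbol, 1814 several and 16010 none, and only the first kind was used. The row with the highest mean stood for each of 22180 genes, and 14699 genes with a log2 value above 5 in at least 3 arrays were tested. Genes outside this set were not analysed here. All 29 arrays in 7 groups were fitted in limma 3.58.1 (R 4.3.3) with lmFit and eBayes, 22 residual degrees of freedom and Benjamini-Hochberg adjustment over all genes tested. The contrasts were BDL day 3 minus BDL day 1, the same step in sham, and their difference. The median SE of a BDL difference was 0.13. The number of arrays limits the precision. The procedure was also run on simulated data with independent noise for each gene and no array set of low spread. That run therefore cannot show how the low-spread arrays affect the calls.

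The groups, the gene lists and the genes named were chosen with earlier results of these data known. Genes named were the 15 largest rises and 15 largest falls whose arrays did not overlap and whose higher mean was above 6, passing over predicted genes, the 5 largest differences between steps each way, the 4 or fewer called members of each list that changed most, and a fixed set of genes known in cholestasis. Values are printed for part of these, and further list members were picked after their values were seen. Alternatives changed the filter, the row rule, the scaling, the arrays fitted, a term for the arrays of low spread, array weights, a mean-variance trend and single arrays. Promoters were taken from RefSeq for GRCm38.p6, with 14415 promoters for 11452 of the genes tested.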

Additional observations from a re-analysis of the deposited data

Results flagged for a closer look

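For 11 genes the step from day 1 to day 3 differed between ligated and sham livers by limma's test of the difference itself. The step was higher in BDL for Gpnmb, by 3.06 ± 0.455 (SE, adjusted p = 0.00151), for Mmp7 by 1.67 ± 0.298 (adjusted p = 0.0142), for Vill by 1.32 ± 0.20 (adjusted p = 0.00151) and for Anxa3 by 1.16 ± 0.226 (adjusted p = 0.0301). It was lower for Slco1a1 (-3.70 ± 0.56, adjusted p = 0.00151), Mup21 (-3.29 ± 0.541, adjusted p = 0.00446) and Sult2a8 (-3.02 ± 0.416, adjusted p = 0.000999), whose BDL day 3 means lie in the background range, so these sizes are not firm. It was also lower for Cyp4a12a (-3.01 ± 0.552, adjusted p = 0.0174), Me1 (-1.41 ± 0.285, adjusted p = 0.045), Tnfaip3 (-1.31 ± 0.258, adjusted p = 0.0348) and Pex11a (-1.12 ± 0.212, adjusted p = 0.0231). The sham means of Gpnmb and the sham day 3 mean of Mmp7 lie under the filter level, so the sizes for Gpnmb and Mmp7 are not firm either. Without the 4 day 1 arrays of low spread 4 genes passed, 2 of them among these 11, and with array weights 7 passed, 5 of them among the 11.

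In 11 of 300 pairs of a gene and a ligated group, 1 array lay far from the other 4 by Dixon's test, which chance alone gives in about 1 in 20 groups. The high arrays were day 3 replicate 2 for Atf3 (7.79, next 7.09) and Dio1 (7.21, next 6.36), day 3 replicate 1 for Abcg5 (9.24, next 9.12), day 1 replicate 1 for Got1 (10.92, next 9.77) and Timp3 (6.75, next 5.83), and day 1 replicate 5 for Herpud1 (11.94, next 11.73) and S100a8 (7.51, next 6.11). The low arrays were day 1 replicate 3 for Abcg5 (8.42, next 8.75), day 1 replicate 5 for Stab2 (7.42, next 8.04), and day 3 replicate 1 for Rb1 (7.41, next 7.59) and replicate 2 for Timp2 (6.87, next 7.12).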

How the results depend on the processing

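No paired analysis was possible because the titles carry animal numbers and the replicate numbers only follow accession order. Of the 163 named genes called in BDL, 79 kept their call under every setting in which they were tested. The stricter filter (a log2 value above 6 in at least 5 arrays) tested only 169 of the 179 named genes. Without the 2 BDL day 1 arrays of low spread 63 of the 163 were not past the threshold. For BDL, against 2715 changed genes (1769 higher, 946 lower), there were 1057 (608, 449) without these 2 arrays, 1444 (814, 630) without the 4 day 1 arrays of low spread, 1479 (834, 645) with that array set as a term and 814 (475, 339) with only the 8 ligated arrays not of low spread, the last chosen after seeing the data. With only the 10 ligated arrays 1779 changed and 579 were lower, with centred arrays 1628 were lower, and without day 3 replicates 1 and 2 together, also chosen after seeing the data, 613 were lower. Leaving out single arrays gave 1718 to 3054 changed, 1108 to 2053 higher and 610 to 1087 lower. In sham, against 43, there were 5 with no filter, 76 with the stricter filter, 106 with cyclic loess, 1 without the 4 arrays, 0 with the term (1504 at an unadjusted p under 0.05 in limma), 335 with array weights and 0 to 1764 without single arrays. The difference between steps gave, against 11, 29 with cyclic loess, 4 without the 4 arrays (2 of them among the 11), 65 with the term, 7 with array weights and 7 to 109 without single arrays. Nop56, a ribosome biogenesis factor, rose by 0.47 (adjusted p = 0.0299) and read -0.32 (adjusted p = 0.222) with the mean of its rows in place of the brightest row. The causes were not tested. Genes with a mean under 5 are not told apart from background.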
